A study of Mus musculus with 80 samples.

Results

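Interferon-stimulated genes are the genes that cells switch on when interferon, a cytokine of antiviral defence, binds its receptor. A list of 38 such mouse genes was followed by gene symbol through RNA sequencing of whole blood. All 38 were among the 50365 rows kept from the deposited table, and all 38 were among the 21101 genes that passed a filter on low values (3 or more libraries with a value of 10 or higher), 35 of them above 0 in every library. The members were Irf7, Irf9, Stat2, Ifit1, Ifit2, Ifit3, Ifit3b, Isg15, Isg20, Usp18, Mx1, Mx2, Oas1a, Oas1e, Oas1g, Oas2, Oas3, Oasl1, Oasl2, Rsad2, Rtp4, Herc6, Ddx58, Ifih1, Dhx58, Xaf1, Zbp1, Ifi44, Bst2, Cmpk2, Parp14, Trim30a, Ifi27l2a, Ifi47, Igtp, Irgm1, Gbp2 and Gbp3.

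The blood came from female C57BL/6 mice that had been irradiated in one of 2 ways or sham irradiated, and every mouse was of this one strain with no other genotype. In the first way, here called VarDR as in the labels, the dose rate fell with time as it would from radioactive caesium inside the body. These mice had received 2 Gy by day 2 (5 libraries), 2.8 Gy by day 3, 4.1 Gy by day 5 and 9.7 Gy by day 30 (6 libraries each), and the labelled dose rates at those days were 1, 0.77, 0.62 and 0.056 Gy/day. In the second way, acute, doses of 2 Gy (6 libraries), 2.8 Gy (3 libraries) and 4.1 Gy (6 libraries) were given at 0.73 Gy/min and blood was labelled day 2, 3 and 5. Each of the 7 irradiated groups had a sham group of its own way and day with 6 libraries, so that 38 irradiated and 42 sham libraries made 14 groups. Day and dose rose together within each way and cannot be told apart. The ages of the mice were not in the labels used here, and p-values measure the spread between the labelled samples.

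Type I interferons act through the receptor chains IFNAR1 and IFNAR2 and the kinases JAK1 and TYK2, which lead to a complex that holds STAT2 and IRF9. That complex binds a DNA element called the interferon-stimulated response element (ISRE) in front of its target genes. Interferon gamma acts through another receptor and a DNA element called the gamma-activated site (GAS), and induces above all the large GTPases such as the IRG and GBP proteins. In blood, interferon-stimulated genes are used as a readout of exposure of leukocytes to interferon, and plasmacytoid dendritic cells are a leading source of type I interferon.

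The RefSeq table of promoters on GRCm38.p6 (from 250 bases before to 50 bases after a transcription start) held 28 of the 38 members. An ISRE core, which is GAAA, then any 2 bases, then GAAA, searched on both strands, was present in a promoter of 17 of these 28 (60.7%), against 3.99% of all 27025 genes in the table. A longer form, GGAAA followed by any 2 bases and GAAACT, was present in 8 of 28 (28.6%, against 0.118%), and each long form contains a core. A GAS, written TTCNNNGAA, was present in 5 of 28 (17.9%, against 9.55%). The stretches below are of some members that hold an ISRE core, with these cores, and in Igtp also the GAS, in capitals. Isg20 and Herc6, whose windows hold no core, are not shown. They are read 5′ to 3′ on the strand of the gene, and N stands for any base.
Ifit3: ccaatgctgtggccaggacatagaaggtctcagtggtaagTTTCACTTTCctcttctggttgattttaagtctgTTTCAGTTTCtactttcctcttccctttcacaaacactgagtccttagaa
Ifit1: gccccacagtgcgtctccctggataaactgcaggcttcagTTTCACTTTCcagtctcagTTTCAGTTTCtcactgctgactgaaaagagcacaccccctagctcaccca
Igtp: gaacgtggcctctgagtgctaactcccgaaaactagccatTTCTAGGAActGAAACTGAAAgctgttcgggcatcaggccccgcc
Isg15: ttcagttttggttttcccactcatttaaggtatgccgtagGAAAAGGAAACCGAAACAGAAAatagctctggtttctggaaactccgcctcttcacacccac
Rsad2: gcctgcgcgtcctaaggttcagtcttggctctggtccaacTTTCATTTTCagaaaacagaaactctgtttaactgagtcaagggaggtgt
Gbp2: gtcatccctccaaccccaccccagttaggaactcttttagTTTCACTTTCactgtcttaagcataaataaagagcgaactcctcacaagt

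These stretches lie on GRCm38.p6 at chr19:34583333-34583456 (plus strand) for Ifit3, chr19:34640745-34640853 (plus) for Ifit1 and chr11:58199471-58199555 (plus) for Igtp. Those of Isg15, Rsad2 and Gbp2 lie at chr4:156200835-156200936 (minus), chr12:26456523-26456612 (minus) and chr3:142620564-142620653 (plus). The stretch of Ifit3b, at chr19:34607729-34607852 on the plus strand, has the same 124 letters as that of Ifit3. Isg15 holds 3 overlapping cores in its run of capitals. On GRCm38 the genes themselves lie at chr7:141262706-141266481 (Irf7, minus strand), chr19:34550694-34576419 (Ifit2, plus) and chr11:58199556-58207591 (Igtp, plus). Rsad2 lies at chr12:26442746-26456452 (minus) and Isg20 at chr7:78913424-78920396 (plus). The promoter windows of Irf7 and of Ifit2 hold no ISRE core. The window of 1 start of Ifit2 holds a GAS that begins 241 bases before that start, and the window of its other start holds none.

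The deposited values were normalised counts whose library totals, in units of 1e6, were 15.9 to 77.7 (median 34.5). As deposited, the median of all genes differed between groups, sham groups included, so all columns were rescaled here to equal medians of ratios, and a level below is a rescaled normalised count. Differences are between means of log2(level + 1), with the standard error (SE) and an adjusted p from limma, a linear model with shared variances fitted to all 21101 genes and adjusted by Benjamini-Hochberg over them. A gene is called higher or lower where the adjusted p is under 0.05. In bulk blood, fewer cells of a type and less RNA per cell cannot be told apart. Markers of red cells, platelets, hepatocytes and several leukocytes differed between groups. Patrolling monocyte markers were lower by 1 to 6 of 6 in all comparisons except VarDR day 30, where 1 was higher, and classical monocyte markers were higher by 1 to 5 of 5. The part of the monocytes in the results was not tested. The lung markers Sftpa1, Sftpb, Sftpc, Sftpd and Scgb1a1 were each under 10 in 70 to 79 of the 80 libraries.

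The 38 genes did not move as one. After VarDR exposure few were called on day 2, more were lower than higher on days 3 and 5, and 15 were higher on day 30. After acute exposure genes were called in both directions on every day. Of the 38 members, 30 were called in at least 1 of the 7 comparisons with sham. Of these 30, 17 were called only higher, 3 only lower (Irf9, Oasl1 and Ddx58) and 10 in both directions. Such counts over the 7 comparisons together were not made for all genes, of which 3.27% to 25.1% were called in each. On VarDR day 2, 1 member was higher and 0 lower, where 3.27% of all genes were called (2.53% higher and 0.744% lower); 9 members had an unadjusted p under 0.05. On VarDR day 3, 2 were higher and 9 lower (all genes 5.12% and 5.24%, together 10.4%), and on VarDR day 5, 3 were higher and 5 lower (all genes 5.41% and 3.38%, together 8.79%). On VarDR day 30, 15 were higher and 1 lower, while 12.7% of all genes were higher and 12.5% lower (25.1% called). The acute counts were 8 higher and 6 lower on day 2 (all genes 7.37% and 7.47%, together 14.8%), 12 and 8 on day 3 (11.8% and 8.73%, together 20.6%), and 5 and 4 on day 5 (9.76% and 9.12%, together 18.9%).

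The median log2 difference of the 38 members was −0.13 on VarDR day 2, −0.23 on day 3, −0.23 on day 5 and 0.35 on day 30, where the median of all genes was −0.04, −0.03, 0.10 and −0.18. After acute exposure the median of the members was 0.25, 0.14 and 0.16 on days 2, 3 and 5, where that of all genes was 0.05, 0.30 and 0.02. Without the rescaling the acute counts were far more one-sided: 23 higher and 6 lower on day 2, 27 and 6 on day 3, and 30 and 0 on day 5. In those values 29.4%, 57.5% and 49.2% of all genes were called, and the median of all genes was itself shifted by 0.50, 1.20 and 0.88. The map of log2 differences by role shows the split within families.

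**Figure D1:**
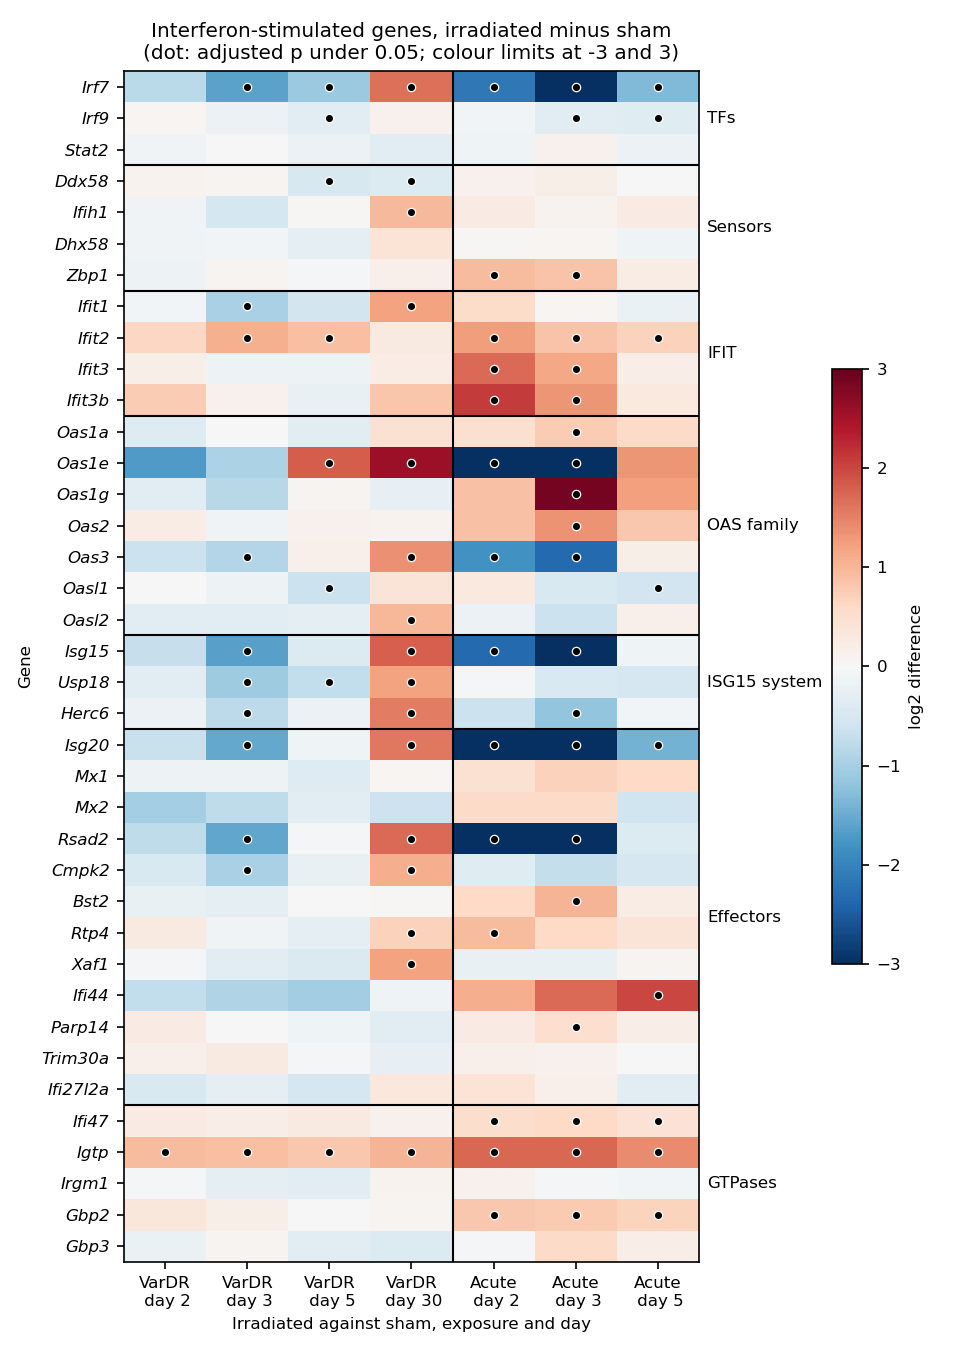
Log2 difference between irradiated and sham blood for the 38 genes (rows, grouped by role) in the 7 comparisons (columns); red is higher, blue is lower, colours stop at -3 and 3, and a black dot marks an adjusted p under 0.05. Igtp carries a dot and a red cell in all 7 columns, Irf7 is blue in every column except VarDR day 30, and the VarDR day 30 column holds 15 red cells with a dot.

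Among the interferon-inducible GTPases, proteins of the defence against intracellular pathogens, Igtp stood out as the one member of the 38 called in the same direction in 7 of 7 comparisons. Igtp encodes an immunity-related GTPase (IRGM3). In VarDR day 2 blood its level was 2911, 3262, 3327, 3436 and 3687, against 1199 to 2959 in sham (median 1557), so that 4 of the 5 irradiated libraries lay above every sham. On VarDR day 3 it ran from 2733 to 4557 (median 3886) against 1438 to 2239 in sham (median 2010). On VarDR day 5 it ran from 3156 to 4865 (median 3832) against 1979 to 2470 (median 2258). On these days no irradiated library fell within the range of its shams.

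At day 30 Igtp was 3541 to 5394 (median 4148) against 1817 to 2483 in sham (median 2090). After acute exposure it was 4036 to 10300 on day 2 (median 6140; sham 1448 to 2231, median 1945). The 3 acute libraries of day 3 had 6923, 7917 and 7971, against 1855 to 2764 in sham (median 2409). On acute day 5 it was 4386 to 7480 (median 5405; sham 1730 to 2265, median 2135). None of these groups overlapped with its sham group. The log2 differences were 0.96 ± 0.16, 0.91 ± 0.16, 0.81 ± 0.16 and 1.01 ± 0.16 on VarDR days 2, 3, 5 and 30 (limma, adjusted p = 4.42e-05, 1.68e-05, 0.000136 and 9.91e-07). They were 1.73 ± 0.16, 1.73 ± 0.19 and 1.41 ± 0.16 on acute days 2, 3 and 5 (adjusted p = 1.12e-14, 2.20e-11 and 1.55e-11). Platelet markers moved with Igtp: 6 of 7 were higher on VarDR day 2 and 7 of 7 in each of the other 6 comparisons, with median log2 differences of 1.03 on VarDR day 30 to 2.25 on acute day 5. Their summed level was 103254 to 167484 on VarDR day 2 against 31544 to 122829 in sham. In the other comparisons it lay above every sham, for example at 144977 to 212835 against 46673 to 76430 on VarDR day 5 and at 275120 to 360589 against 71784 to 100294 on acute day 3. None of the 7 platelet markers was at 0 in any library. B cell markers were lower in all 7 comparisons (6 or 7 of 7 markers). The part of these cells in the rise of Igtp was not tested. Igtp shares 15.9% of its 31-base words with its neighbour Irgm2, so a part of its reads could be split between them.

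Of the other GTPases, Gbp2 (a guanylate-binding protein) and Ifi47 (IRG47) were higher on every acute day and in no VarDR group. Gbp2 was higher by 0.80 ± 0.20, 0.79 ± 0.25 and 0.66 ± 0.20 on acute days 2, 3 and 5 (limma, adjusted p = 0.0017, 0.0142 and 0.0111). Ifi47 was higher by 0.53 ± 0.15, 0.60 ± 0.19 and 0.44 ± 0.15 (adjusted p = 0.00817, 0.0143 and 0.0327). When 1 library at a time was left out, Ifi47 lost its call in 1 of 12, 2 of 9 and 4 of 12 cases on days 2, 3 and 5. Gbp2 lost its call in 0 of 12, 2 of 9 and 1 of 12. Their acute and VarDR responses did not differ past the threshold on any day. Irgm1 and Gbp3 were not called in any of the 7 comparisons. Ifng, the gene of interferon gamma, was higher on acute day 2 by 2.27 (adjusted p = 0.0222), a comparison in which 6 of 6 markers of NK cells, a cell type that makes interferon gamma, were higher too; whether they are linked was not tested.

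Ifit2 and Irf7 moved in opposite directions. Ifit2, which binds RNA and inhibits translation, was higher in 5 of 7 comparisons and lower in none. Irf7, the transcription factor that amplifies type I interferon production, was lower in 5 and higher in 1, VarDR day 30. In the same 5 comparisons Irf7 was lower and Ifit2 higher. The pair was singled out with results of these data already known, so their opposition is a description.

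Ifit2 in VarDR day 2 blood was 786.5, 976.2, 1185, 1393 and 1429, against 422.0 to 1311 in sham (median 732.6), and the groups overlapped. It was 845.2 to 1657 on VarDR day 3 (median 1357; sham 384.6 to 754.9, median 676.0). On VarDR day 5 it was 1004 to 1732 (median 1328; sham 528.1 to 949.7, median 752.1). Both groups lay wholly above their shams. At day 30 Ifit2 was 663.4 to 1358 (median 972.5) against 702.5 to 903.5 in sham (median 832.1), and the groups overlapped. On acute days 2, 3 and 5 its medians were 1809, 1699 and 1302, against sham medians of 747.3, 939.4 and 857.2, and in each the lowest irradiated library (1047, 1663 and 1177) was above the highest sham (835.8, 1172 and 928.2).

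The log2 differences of Ifit2 on VarDR days 2, 3, 5 and 30 were 0.62 ± 0.19, 1.07 ± 0.18, 0.90 ± 0.18 and 0.26 ± 0.18 (limma, adjusted p = 0.0538, 1.68e-05, 0.000282 and 0.323). On acute days 2, 3 and 5 they were 1.26 ± 0.18, 0.86 ± 0.23 and 0.69 ± 0.18 (adjusted p = 7.17e-08, 0.00285 and 0.00357).

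Irf7 in VarDR day 2 blood was 2445, 2752, 2969, 3166 and 4380, against 3325 to 10661 in sham (median 4184). It was 1960 to 5299 on VarDR day 3 (median 3609; sham 5019 to 19819, median 10093) and 2041 to 5815 on VarDR day 5 (median 4126; sham 5238 to 10386, median 8912). In each of these comparisons 4 irradiated libraries lay below every sham and the rest overlapped. On day 30 the order was turned round: Irf7 was 18477 to 44462 (median 22847) against 4682 to 12275 in sham (median 7320), without overlap. After acute exposure all groups lay below their shams, with 1215 to 1526 on day 2 (median 1309; sham 4103 to 12746, median 5296). The day 3 libraries had 1004, 1069 and 1125 (sham 8020 to 11956, median 9419), and those of day 5 had 1716 to 4027 (median 2810; sham 4218 to 8182, median 7173).

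The log2 differences of Irf7 on VarDR days 2, 3, 5 and 30 were −0.80 ± 0.29, −1.62 ± 0.27, −1.12 ± 0.27 and 1.65 ± 0.27 (limma, adjusted p = 0.131, 1.39e-05, 0.00327 and 3.90e-06). On acute days 2, 3 and 5 they were −2.15 ± 0.27, −3.13 ± 0.34 and −1.31 ± 0.27 (adjusted p = 1.82e-09, 7.82e-12 and 0.000134). The acute day 5 difference was −0.36 and not called in the values as deposited. The change of the VarDR response between day 5 and day 30 was 2.77 ± 0.39 (adjusted p = 5.19e-06).

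**Figure D2:**
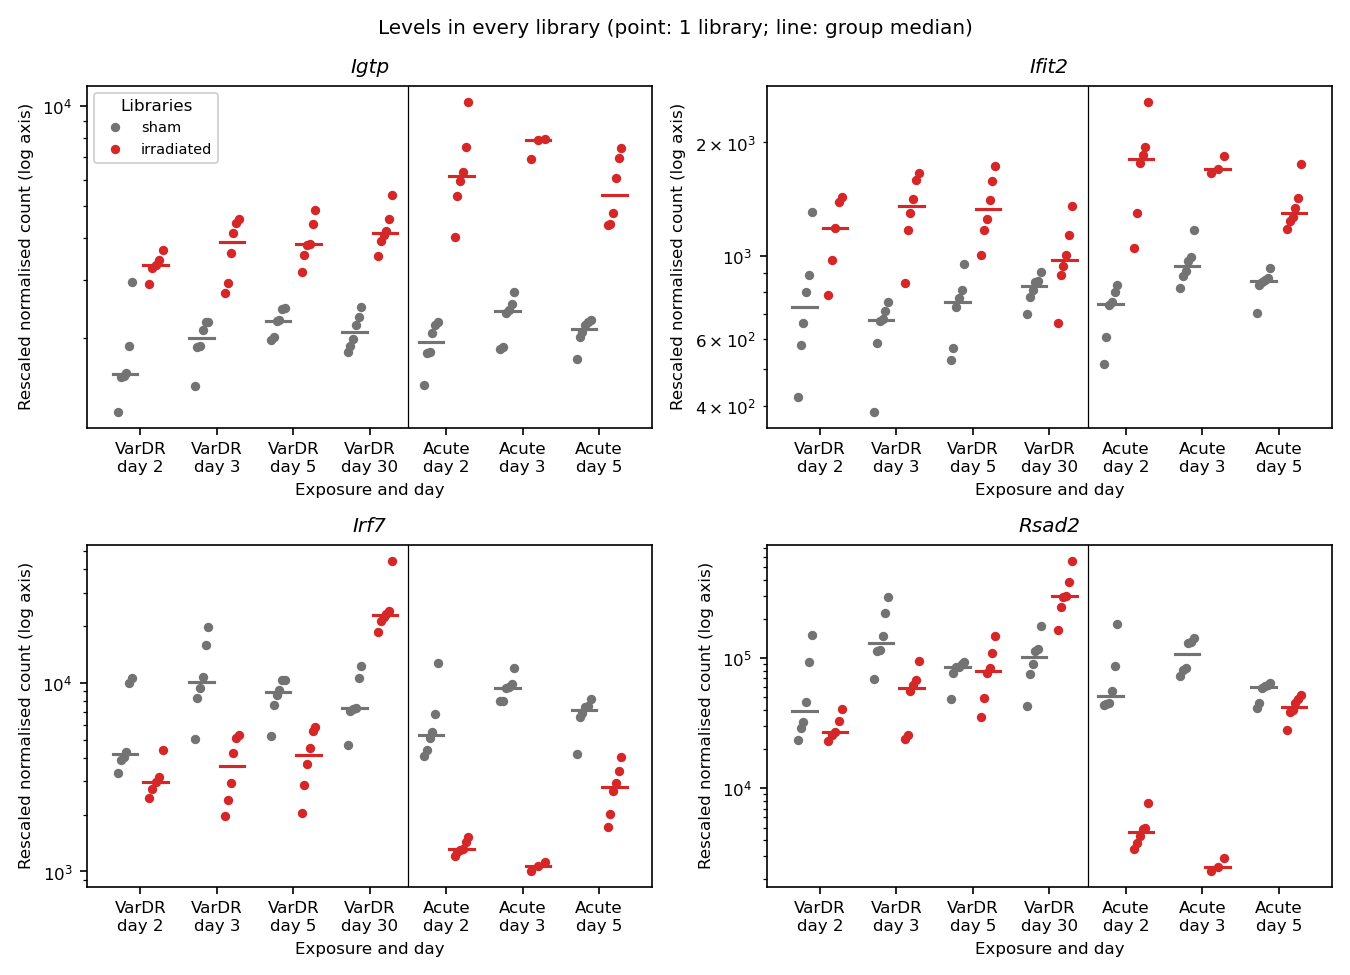
Rescaled normalised counts (log axis) of Igtp, Ifit2, Irf7 and Rsad2 in each library of the 7 sham (grey) and 7 irradiated (red) groups; a point is 1 library and a line is the group median. Igtp points of irradiated blood lie above the sham points in every group except VarDR day 2, where the ranges overlap, Irf7 lies above sham on VarDR day 30, where 5 of 6 Rsad2 points do, and both genes lie below sham on acute days 2 and 3.

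The day 30 rise included effectors and regulators from most families. It came with a rise of red cell markers: 7 of 7 were higher (median log2 difference 1.68), and their summed level was 4010169 to 7782619 against 877688 to 3092722 in sham. With a red cell score as a covariate, described with its test further on, 2 members were higher in place of 15. Of all genes, 3.94% were then called in place of 25.1%. On that day the score was 16.67 to 17.97 in irradiated and 14.54 to 16.55 in sham blood, without overlap. Exposure and red cell content therefore cannot be told apart there without assuming the slope of the other libraries. The genes of the ISG15 system rose together: Isg15, a ubiquitin-like modifier, by 1.79 ± 0.36, Herc6, its ligase in mice, by 1.53 ± 0.24, and Usp18, its protease and a brake on the receptor, by 1.20 ± 0.22 (limma, adjusted p = 8.46e-05, 1.40e-06 and 1.48e-05). Herc6 was 2182 to 4591 (median 3428) against 856.4 to 1632 in sham (median 1098). Usp18 was 600.3 to 1024 (median 756.4) against 276.4 to 378.9 in sham (median 322.8). Isg15 was 3977 to 12926 (median 6646) against 970.8 to 3636 in sham (median 1898). In none of these 3 did the irradiated libraries overlap with sham.

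Rsad2 (viperin, an enzyme that makes a chain-terminating nucleotide) and its genomic neighbour Cmpk2, which supplies a substrate, rose on day 30 by 1.69 ± 0.35 and 1.10 ± 0.27 (adjusted p = 0.000144 and 0.00125). Rsad2 was 166061 to 563499 (median 299288) against 42887 to 175445 in sham (median 102408), so the lowest irradiated library lay within the sham range. Isg20, an exonuclease that degrades RNA, was 66905 to 131701 (median 88269) against 14392 to 59458 (median 29268), a log2 difference of 1.58 ± 0.34 (adjusted p = 0.000194). Ifit1, which binds RNA with a foreign cap, rose by 1.21 ± 0.25 (adjusted p = 0.000159). Of the oligoadenylate synthetase family, which activates RNase L, Oas1e (2.57 ± 0.62), Oas3 (1.37 ± 0.30) and Oasl2 (1.00 ± 0.27) rose (adjusted p = 0.000922, 0.000316 and 0.00345). Oas1e shares 24.3% of its 31-base words with other genes and is uncertain for that reason.

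The remaining members higher on day 30 were Xaf1 (1.22 ± 0.24), a pro-apoptotic protein, Ifih1 (0.97 ± 0.20), the RNA sensor MDA5, and Rtp4 (0.69 ± 0.19), besides Irf7 and Igtp (adjusted p = 6.39e-05, 9.44e-05 and 0.00345 for the first 3). The one member called lower was Ddx58, the RNA sensor RIG-I, with 1001 to 1197 (median 1089) against 1216 to 1647 in sham (median 1440) and a log2 difference of −0.40 ± 0.14 (adjusted p = 0.0307). In 13 of the 38 members all irradiated libraries of day 30 lay above all shams, and in 1, Ddx58, all lay below. The same count was not made over all genes, of which 25.1% were called on that day. Leaving out any 1 of the 12 libraries left the number of higher members at 15, while the call of Ddx58 was lost without any 1 of 6 libraries. Of 13 plasmacytoid dendritic cell markers 7 were lower on that day and 0 higher, with summed levels of 3662 to 5620 against 5172 to 7903 in sham. Among these markers, Cox6a2, Cd300c and Klk1 were under 10 in 69, 45 and 41 of the 80 libraries. The part of these cells in the rise was not tested. Relative to the VarDR response of day 5, the response of day 30 was higher in 16 members and lower in 0, where 6.70% of all genes were higher and 5.82% lower (12.5% called).

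Red cell markers were partly lower on VarDR day 3, where 4 of 7 were called lower and their summed level was 536860 to 2192076 against 1750119 to 5174734 in sham. Of the 15 members higher on VarDR day 30, 10 were lower in another comparison. Of these 10, 9 were lower on VarDR day 3 and 7 on acute day 3. Of the 15, 1 (Igtp) was higher on acute day 3. Such joint counts were not made over all genes, of which 5.24% were lower on VarDR day 3 and 8.73% on acute day 3. The 9 lower members of VarDR day 3 were Irf7, Isg15 (−1.62 ± 0.36), Rsad2 (−1.56 ± 0.35), Isg20 (−1.55 ± 0.34), Usp18 (−1.06 ± 0.22), Ifit1 (−0.96 ± 0.25), Cmpk2 (−0.96 ± 0.27), Oas3 (−0.88 ± 0.30) and Herc6 (−0.79 ± 0.24). Their adjusted p by limma ran from 1.39e-05 for Irf7 to 0.0476 for Oas3. The call of Oas3 was lost without any 1 of 6 of the 12 libraries, and that of Herc6 without any 1 of 3. Usp18 was 133.3 to 318.7 (median 212.9) against 316.0 to 593.8 (median 470.1), and 5 of the 6 irradiated libraries lay below every sham. Rsad2 was 23802 to 94607 (median 58955) against 69826 to 295668 (median 131851), and Isg20 was 7770 to 32955 (median 21999) against 30869 to 91784 (median 47748). In both genes 5 of the 6 irradiated libraries lay below every sham.

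On VarDR day 5 the 5 lower members were Irf7, Irf9, Usp18, Oasl1 and Ddx58. Irf9, the DNA-binding partner of Stat2, fell by 0.34 on the log2 scale (SE 0.11, adjusted p = 0.0314). Usp18 fell by 0.74 (SE 0.22, adjusted p = 0.0185), Oasl1 by 0.65 (SE 0.21, adjusted p = 0.0422) and Ddx58 by 0.47 (SE 0.14, adjusted p = 0.0232). Ddx58 was 741.2 to 1620 (median 964.0) against 1138 to 1766 in sham (median 1409), with overlap. Without replicate 4 of the irradiated group, the difference of Usp18 was −0.47 and no longer called. The third higher member, beside Igtp and Ifit2, was Oas1e at 1.82 ± 0.62 (adjusted p = 0.0491), with 1 sham library listed at 0: without sham replicate 5 it was 0.78 and not called. Its call was lost without any 1 of 6 of the 12 libraries. The calls of Irf9, Oasl1 and Ddx58 were each lost without any 1 of 6 to 8 of the 12 libraries. Over 0.5% of the signal lay in hepatocyte markers in 3 irradiated and 3 sham libraries of that day, and without such libraries 1 of the 5 lower members, Irf7, kept its call.

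Acute exposure gave the largest differences of the set, and they ran in both directions. On days 2 and 3, 7 of 7 red cell markers were lower as well, with summed levels of 42448 to 164381 against 1123058 to 3881732 in sham and of 11036 to 16343 against 2520956 to 2837189. On day 2 Isg20 was 960.0 to 2370 (median 1664) against 16097 to 57086 in sham (median 21478), and on day 3 it was 545.8, 547.6 and 645.1 against 27159 to 40291 (median 34288). Its log2 differences were −3.87 ± 0.34 and −5.89 ± 0.41 (limma, adjusted p = 3.69e-15 and 1.77e-19). Rsad2 was 3412 to 7762 (median 4591) on day 2 against 43763 to 184525 in sham (median 50906), and 2313, 2491 and 2897 on day 3 against 73109 to 142060 (median 107612). Its log2 differences were −3.81 ± 0.35 and −5.34 ± 0.43 (adjusted p = 3.17e-14 and 1.08e-16). For both genes the irradiated libraries of days 2 and 3 lay below every sham. By day 5 Isg20 was 5237 to 11531 (median 9166) against 18507 to 30107 (median 23951; −1.41 ± 0.34, adjusted p = 0.000924), and Rsad2 at 28073 to 52304 overlapped with its shams.

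Isg15 was lower on acute days 2 and 3 by log2 differences of −2.33 ± 0.36 and −3.91 ± 0.44, Oas3 by −1.81 ± 0.30 and −2.33 ± 0.37, and Oas1e by −5.15 ± 0.62 and −4.75 ± 0.76 (limma, adjusted p = 7.41e-07 or lower for all 6 except Oas3 on day 2, 1.86e-06). Oas1e was at most 3.07 in the acute day 2 libraries and 2.17 in those of day 3, so its fitted difference depends on the added 1. Herc6 was lower on day 3 (430.1, 459.1 and 461.3 against 821.7 to 1302; −1.18 ± 0.30, adjusted p = 0.00182). Irf9 fell by 0.34 on day 3 and by 0.36 on day 5 (SE 0.13 and 0.11, adjusted p = 0.0467 and 0.00782), but in the values as deposited its differences were 0.67 and 0.59. Oasl1 fell by 0.58 on day 5 (SE 0.21, adjusted p = 0.0462), and as deposited its difference was 0.37. The call of Oasl1 was lost without any 1 of 7 of the 12 libraries, with −0.36 without sham replicate 1, and that of Irf9 on day 3 without any 1 of 7 of the 9.

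Of the IFIT genes, Ifit2, Ifit3 and Ifit3b rose on acute days 2 and 3 and Ifit1 was not called. Ifit3 was 674.2 to 1178 on day 2 (median 1014) against 251.7 to 352.8 in sham (median 307.5), and 511.7, 618.2 and 636.2 on day 3 against 139.8 to 686.6 (median 254.4). Its log2 differences were 1.69 ± 0.24 and 1.17 ± 0.30 (limma, adjusted p = 5.43e-08 and 0.00229), and those of Ifit3b were 2.09 ± 0.35 and 1.33 ± 0.43 (adjusted p = 2.04e-06 and 0.0194). The day 3 call of Ifit3b was lost without any 1 of 4 of the 9 libraries. Ifit3 shares 61.8% of its 31-base words with Ifit3b, so the levels of each are uncertain on their own. Zbp1, the sensor that can start necroptosis, was higher by 0.94 ± 0.19 and 0.86 ± 0.23 on days 2 and 3 (adjusted p = 6.96e-05 and 0.00406), and Rtp4 by 0.94 ± 0.19 on day 2 (adjusted p = 6.34e-05).

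On acute day 3 the OAS family was split: Oas1g (2.88 ± 0.60), Oas2 (1.35 ± 0.40) and Oas1a (0.77 ± 0.29) were higher (limma, adjusted p = 0.000139, 0.00993 and 0.0496) while Oas3 and Oas1e were lower. Oas1g was 136.8, 171.2 and 226.0 against 0 to 77.9 in sham (median 39.0), without overlap, and 1 sham library at 0 weighs on its fitted difference. The call of Oas1a was lost without any 1 of 7 of the 9 libraries. Oas1a and Oas1g share 68.7% and 54.6% of their 31-base words with each other and are uncertain. Bst2 (tetherin), at 1.01 ± 0.26, and Parp14, an ADP-ribosyltransferase, at 0.50 ± 0.16, were also higher on that day (adjusted p = 0.00265 and 0.0207). The call of Parp14 was lost without any 1 of the 3 irradiated libraries. On day 5 Ifi44 was higher by 2.02 ± 0.72 (adjusted p = 0.0359), and by 1.28, not called, without sham replicate 3, in which it was listed at 0.

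The acute day 3 group held 3 libraries, and 2 of them had over 0.5% of their signal in 8 hepatocyte markers. All 8 of those markers, such as Alb and Apoa1, were higher in that comparison, with summed levels of 26200, 357052 and 369254 against 534 to 41409 in sham. Without the libraries over 0.5%, left out in all groups after the data were seen, 1 acute day 3 library was left, which the model takes to vary like the other groups. In that fit the log2 differences on acute day 3 were 1.79 for Igtp, 3.255 for Oas1g, 0.96 for Bst2, −5.97 for Isg20 and −5.49 for Rsad2. Ifit2 was then at 0.95, against 0.86 with all 3 libraries. Calls are not counted for that fit because they would rest on 1 irradiated library. Leaving out acute day 3 replicate 1 or replicate 2 alone left 7 higher members. The part of hepatocyte RNA in these differences was not tested.

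The responses to the 2 ways of exposure differed in some members at matched dose and day. At 2 Gy (day 2) the acute response was higher in 2 members and lower in 3, where 0.194% of all genes were higher and 1.39% lower (1.59% called). Those were Ifit3 (1.51 ± 0.35), Zbp1 (1.08 ± 0.27), Isg20 (−3.21 ± 0.49), Rsad2 (−3.06 ± 0.51) and Oas1e (−3.46 ± 0.90), with limma's adjusted p of 0.00669, 0.0162, 4.65e-06, 2.87e-05 and 0.0203. At 2.8 Gy (day 3) it was higher in 3 and lower in 5 (all genes 0.659% and 1.85%, together 2.51%). Oas1g (3.72 ± 0.78), Ifit3 (1.33 ± 0.39) and Bst2 (1.29 ± 0.34) were higher, and Isg20 (−4.35 ± 0.53), Rsad2 (−3.78 ± 0.56), Oas1e (−3.79 ± 0.98), Isg15 (−2.29 ± 0.57) and Irf7 (−1.52 ± 0.43) were lower. At 4.1 Gy (day 5), 0 members differed by limma past an adjusted p of 0.05 (2.66% of all genes did), and 8 had an unadjusted p under 0.05.

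From day 2 to day 5 the acute response rose in 5 members and fell in 2 (all genes 1.36% and 0.289%, together 1.65%). Oas1e (6.47 ± 0.87), Rsad2 (3.40 ± 0.50), Isg20 (2.46 ± 0.48), Isg15 (2.20 ± 0.51) and Oas3 (1.99 ± 0.43) rose, and Ifit3 (−1.48 ± 0.35) and Ifit3b (−1.79 ± 0.49) fell, by limma. Between acute and VarDR shams of days 2, 3 and 5, 0 members were called by limma (0, 0.00948 and 0.0427% of all genes), and 0, 4 and 2 had an unadjusted p under 0.05. Between VarDR shams of day 30 and those of the earlier days 0 members were called (0% of all genes), and 4 had an unadjusted p under 0.05.

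Red cell markers moved with many of these genes. The 7 red cell markers, which include Alas2 and Slc4a1, had median log2 differences of 1.68 on VarDR day 30 and of −4.43 and −5.79 on acute days 2 and 3, and 4 of 7 were lower on VarDR day 3 and acute day 5. None of the 7 markers was at 0 in any library.

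Within the 42 sham libraries, centred on their group means, a red cell score (the mean log2 level of the 7 markers) covaried with 13 members upwards and 1 downwards. These calls are past an adjusted p of 0.05 by a permutation test within groups, over 114 relations of 38 members with 3 marker scores. Pearson's r was 0.971 for Isg20, 0.957 for Rsad2, 0.924 for Oas3, 0.900 for Isg15, 0.859 for Ifit1 and 0.835 for Irf7 (Spearman's rho 0.965, 0.937, 0.904, 0.835, 0.787 and 0.753). All 6 had a permutation p of 0.00001, the smallest that 100000 permutations can give, and 0.000163 after adjustment. Leaving out the 2 sham libraries farthest from the median score left r at 0.960, 0.939, 0.893, 0.862, 0.801 and 0.781. The score and the genes come from the same libraries and share their scaling. The test was run on the 38 members only, so the share of all genes that covary with the score is not known.

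Of the 6 genes named, 4 were also the most abundant members. Per kilobase of the longest transcript, Isg20 (28970), Rsad2 (22060), Isg15 (2545) and Irf7 (2516) had the 4 highest sham means of the 38. Oas3 (1037) ranked 6 and Ifit1 (380) ranked 12. For Ifit2 and Igtp r was 0.462 and 0.491 (adjusted permutation p = 0.124 and 0.0627), and for Ifit3 it was −0.093. Of the 6 genes with r of at least 0.8, a limit set after the values were seen, 6 were higher on VarDR day 30, 6 lower on VarDR day 3, and 5 lower on acute day 2 and on acute day 3. Of the other 32 members, 9 were higher and 1 lower on VarDR day 30, and 2 were higher and 3 lower on VarDR day 3. On acute days 2 and 3, 8 and 12 of them were higher and 1 and 3 lower. A score of 13 plasmacytoid dendritic cell markers covaried upwards with 0 members and downwards with 2. These 2 were Oasl1 (r = −0.482) and Xaf1 (r = −0.463), with permutation adjusted p = 0.00627 and 0.0259. Of the markers in that score, Cox6a2, Cd300c and Klk1 were under 10 in 69, 45 and 41 of the 80 libraries. The score thus rests in part on low values. A neutrophil score covaried with 0 members.

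**Figure D3:**
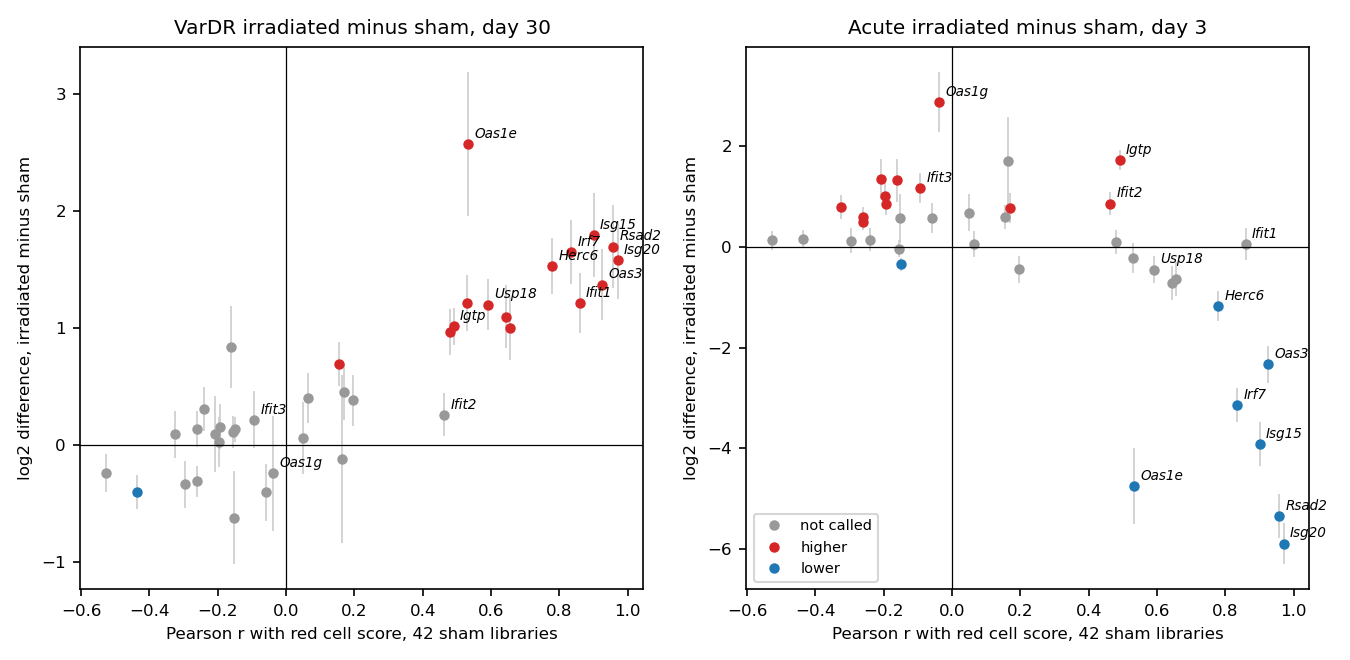
Pearson's r of each of the 38 genes with the red cell score over the 42 sham libraries (x axis) against its log2 difference from sham, with its standard error, on VarDR day 30 (left) and acute day 3 (right). Isg20, Rsad2, Oas3, Isg15 and Irf7, at the right end of the x axis with r of 0.835 to 0.971, are higher on VarDR day 30 and lower on acute day 3; Ifit1, with r = 0.859, is higher on VarDR day 30 and not called on acute day 3, and Ifit3 and Oas1g, with r near 0, are higher on acute day 3.

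With the red cell score as a covariate in the same limma model, a choice made after the data were seen, 2 members were higher on VarDR day 30 in place of 15. These were Herc6 (0.67 ± 0.19, adjusted p = 0.0267) and Igtp (0.64 ± 0.16, adjusted p = 0.00813), and 3.94% of all genes were called in place of 25.1%. Irf7 was then at 0.57 ± 0.18 and not called (adjusted p = 0.0535). On VarDR day 3 the lower members went from 9 to 3 (Irf7 at −0.80 ± 0.17, Isg20 at −0.39 ± 0.11 and Usp18 at −0.68 ± 0.21), and Ifit2 and Igtp stayed higher at 1.25 ± 0.19 and 1.20 ± 0.15. Of all genes, 5.9% were called on that day in place of 10.4%. On VarDR day 5 Irf7 was −1.11 ± 0.16 and Ifit2 0.91 ± 0.18, both called. The change of the VarDR response from day 5 to day 30 was then called in 2 members, Irf7 (1.67 ± 0.24) and Usp18 (1.43 ± 0.29), in place of 16. That change was called in 2.08% of all genes in place of 12.5%. On VarDR day 30 and on all 3 acute days the score did not overlap between irradiated and sham blood of that day. There, exposure and red cell content cannot be told apart without assuming the slope of the other libraries. On acute day 3 the covariate turned the sign of Irf7 from −3.13 to 0.97 and of Rsad2 from −5.34 to 0.62.

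**Figure D4:**
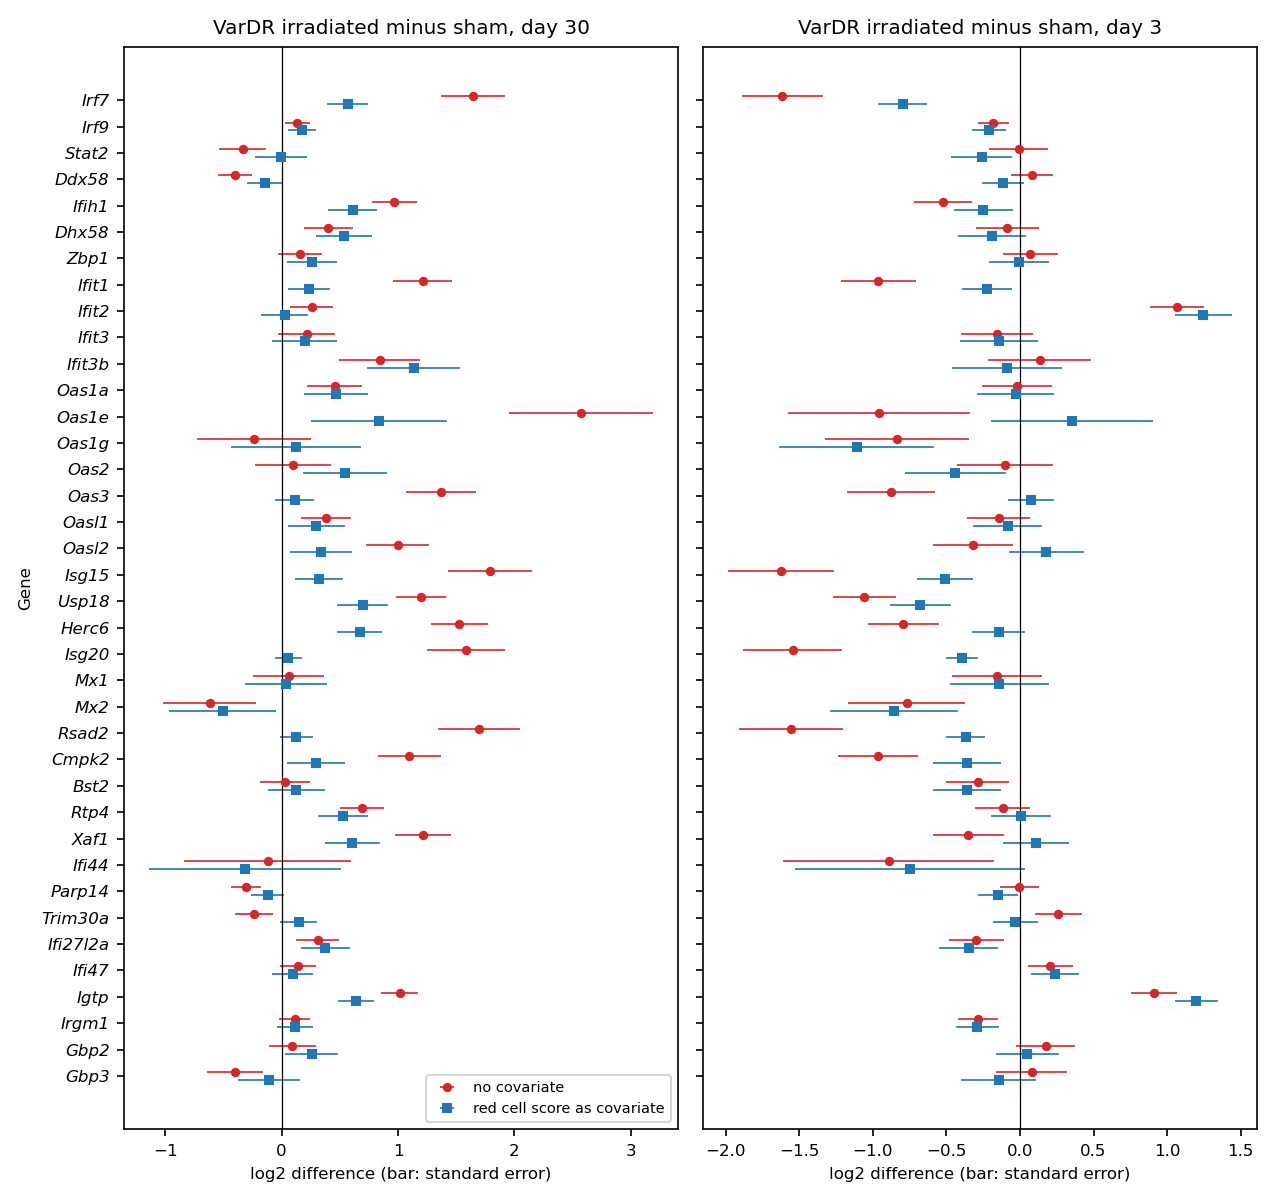
Log2 difference from sham with its standard error for the 38 genes on VarDR day 30 (left) and day 3 (right), without a covariate (red circles) and with the red cell score as a covariate (blue squares). On day 30 the squares of Isg20, Rsad2, Isg15, Oas3 and Ifit1 lie near 0 while Herc6 and Igtp stay higher at 0.67 and 0.64. The day 30 scores of irradiated and sham blood did not overlap, so these squares assume the slope of the other libraries. On day 3 Ifit2 and Igtp stay higher and Irf7 stays lower.

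In the rest of the pathway, among 8 receptor and kinase genes, Jak2 was higher in every comparison, by 0.39 on VarDR day 2 to 0.93 on acute day 5 (limma, adjusted p = 0.0398 and 1.25e-10). Jak1 and Tyk2 were higher on all 3 acute days, and Ifnar2 was higher on VarDR day 30 by 0.76 (adjusted p = 1.73e-04). Of 5 other interferon regulatory factors, 0 were higher in any comparison. On VarDR day 30, 3 of the 5 were lower: Irf1 (−0.43), Irf3 (−0.68) and Irf8 (−0.46), where 12.5% of all genes were lower. Of 10 genes of upstream sensing, Tlr9, the DNA sensor of B cells and plasmacytoid dendritic cells, was lower on VarDR days 5 and 30 by log2 differences of −1.35 and −1.25, and on acute days 2 and 5 by −1.08 and −0.91. In the same comparisons 7 of 7 B cell markers were lower, and 5 to 7 of 13 plasmacytoid dendritic cell markers. Whether those cells carry the fall of Tlr9 was not tested. Mavs, the adaptor of RIG-I and MDA5, was higher on VarDR day 30 by 0.75 and on acute day 3 by 1.06. Of 7 interferon genes, Ifng alone passed the filter on low values.

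Another 48 tested genes known as interferon-induced (of 50 listed) gave 11 higher and 9 lower on VarDR day 30 (all genes 12.7% and 12.5%), and 4 higher and 6 lower on VarDR day 3 (all genes 5.12% and 5.24%). On acute days 2, 3 and 5 they gave 11, 10 and 13 higher (all genes 7.37%, 11.8% and 9.76%) and 6, 4 and 6 lower (7.47%, 8.73% and 9.12%). Ube2l6, the conjugating enzyme of Isg15, moved in the same direction as Isg15: it was higher on VarDR day 30 by 1.62 and lower on acute day 3 by a log2 difference of −7.33 (limma, adjusted p = 8.14e-05 and 3.43e-25). Lgals3bp, a secreted glycoprotein, was higher in 7 of 7 comparisons, as was Igtp, from 0.56 on VarDR day 30 to 2.44 on acute day 2.

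The 8 members called in none of the 7 comparisons were Stat2, Mx1, Mx2, Dhx58, Trim30a, Ifi27l2a, Irgm1 and Gbp3. Stat2, the partner of Irf9, had log2 differences of −0.33 to 0.12. Mx1 and Mx2, GTPases that block viruses and are defective in most laboratory mouse strains, had −0.38 to 0.68 and −1.02 to 0.58. By promoter sequence, of the 17 members with an ISRE core 6 were higher and 1 lower on VarDR day 30, and of the 11 with a promoter and no core 6 were higher and 0 lower (all genes 12.7% and 12.5%). On acute day 3 the counts were 7 higher and 3 lower with a core and 2 higher and 4 lower without (all genes 11.8% and 8.73%), and on the other days 0 to 4 were called in either direction in each set.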

How the data were processed

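RNA sequencing of whole blood gave 80 libraries in 14 groups. The deposited signal values are normalised counts that need not be whole, made by the authors and given per gene. Per the submitters' processing notes the build was GRCm38, and the tools included kallisto 0.44.0, bcl2fastq 2.19, DESeq2 and sleuth, in no stated order. The title of the sheet speaks of lung and of a time point absent from the labels, although 80 of its 82 columns carry the names of the blood samples. The 2 other columns were not used, and 26 rows whose gene names had become dates (at most 0.471% of a column total) were dropped.

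Each column was divided by a median-of-ratios factor computed from the 11349 genes with no 0 in any library. Genes reaching 10 in 3 or more libraries were kept. limma 3.58.1 in R 4.3.3 was fitted on log2(value + 1) with 14 group means, a variance trend and robust shrinkage. Adjustment was by Benjamini-Hochberg within each comparison. The values are not counts, so no count model was used, and depth as reads is not known from them.

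The 38 members and the other lists were chosen with earlier results of these data known. Levels by library were followed for 10 members. These were Irf7, Ifit2 and, for each comparison with sham, the 2 members of smallest p in each direction among those called. Groups of 6 libraries are given by their range, mostly with the median, and some groups of these members are left out. Levels of other members given as examples were chosen after their values were seen. The steps were tested on simulated data: for VarDR day 30, 4.48% of genes changed 1.5-fold, 32.8% of those changed 2-fold and 47.0% of those changed 4-fold were called, among 21101 genes, with 0 of the wrong sign. For acute day 3, with 3 libraries, the shares were 4.48%, 16.4% and 42.4%, and for the other comparisons 8.96% to 16.4%, 26.9% to 32.8% and 48.5% to 53.0%. The simulation changed 200 genes drawn from all those tested, while 25.1% of all genes were called on VarDR day 30 in the data. These shares therefore need not hold for the 38 members. Alternatives were the deposited values, quantile and trimmed-mean scaling, another pseudocount, other filters, library weights, only the compared groups, and leaving out each library. Added after the data were seen were a red cell or a hepatocyte score as covariate, and leaving out libraries with over 0.5% of their signal in hepatocyte markers. Sequences are from RefSeq, and 31-base words from GRCm38 transcripts.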

Additional observations from a re-analysis of the deposited data

Results flagged for a closer look

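For the 10 members with levels by library, 130 groups of 4 to 10 libraries were examined for 1 library far from the rest at Dixon's 95% level. In 10 of them such a library was found, where chance gives about 5% of groups. Irf7 was 44462 in replicate 4 of VarDR day 30, the highest of 6, and 4218 in replicate 6 of the acute day 5 shams, the lowest of 6. Ifit2 was lowest, at 384.6, in replicate 1 of the VarDR day 3 shams. Isg20 was highest, at 57086, in replicate 1 of the acute day 2 shams. Oas1g was highest, at 108.2, in replicate 5 of VarDR day 2 and was listed at 0 in replicate 6 of the acute day 3 shams. Rsad2 was lowest, at 48596, in replicate 3 of the VarDR day 5 shams. Herc6 was highest, at 1049, in replicate 1 of VarDR day 2. Ddx58 was lowest in replicate 1 of VarDR day 3, at 855.7, and in replicate 1 of the acute day 5 shams, at 1001.

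Responses differed between ways of exposure or between days by limma's test of the difference itself. On day 2 the acute and VarDR responses differed in 5 members, among them Ifit3 (1.51), Isg20 (−3.21) and Rsad2 (−3.06), as log2 differences. On day 3 they differed in 8, among them Irf7 (−1.52), Ifit3 (1.33), Isg20 (−4.35), Oas1g (3.72) and Rsad2 (−3.78). The VarDR responses of days 30 and 5 differed in 16, among them Irf7 (2.77), Isg20 (1.70), Usp18 (1.94), Rsad2 (1.74) and Herc6 (1.71). The acute responses of days 5 and 2 differed in 7, among them Ifit3 (−1.48), Isg20 (2.46) and Rsad2 (3.40).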

How the results depend on the processing

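No paired analysis was possible because the replicate numbers only name the samples in accession order. Counts below are of members called, and shares of all genes are for calls in either direction. Except for leaving out 1 library, most smaller changes of a count are not listed. Where the counts moved, the cause was not tested. In the values as deposited, 23, 27 and 30 were higher on acute days 2, 3 and 5 (0 lower on day 5). Of all genes, 29.4%, 57.5% and 49.2% were called on those days. On VarDR day 30, 2 were lower (all genes 22.7%). The acute minus VarDR response was higher in 15, 29 and 31 on days 2, 3 and 5 and lower in 3 on day 3 (all genes 11.3%, 42.4% and 35.6%). The acute response from day 2 to 5 was lower in 1, and shams differed downwards in 5 (acute minus VarDR, day 3), 22 (day 5) and 31 (VarDR day 30 minus earlier), where 15.2%, 20.7% and 49.8% of all genes were called in either direction. As deposited, Irf9 on acute days 3 and 5 was 0.67 and 0.59 and Oasl1 on acute day 5 was 0.37, reversed in sign. With quantile scaling, 1 was lower on VarDR day 2 and 3 on VarDR day 30 (all genes 3.48% and 20.8%), and 8 were higher on VarDR day 30 minus day 5 (7.75%). The acute minus VarDR response was lower in 6 on day 2 and 1 on day 5 (all genes 2.39% and 2.75%).

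With library weights, 3 were higher on VarDR day 2, 2 lower on VarDR day 5, 2 lower on VarDR day 30 and 10 higher on acute day 5. Of all genes, 9.75%, 5.23%, 30% and 30.8% were called there. The acute minus VarDR response was higher in 6 and lower in 6 on day 2, higher in 9 on day 3 and lower in 1 on day 5 (all genes 6.81%, 12.5% and 5.98%). The VarDR response from day 5 to 30 was higher in 10, and the acute response from day 2 to 5 lower in 5 (all genes 7.87% and 3.18%). With no filter, 3 were higher on acute day 5 and 1 was lower from acute day 2 to 5 (all genes 10.1% and 0.867%). With only the compared groups, 6 were lower on VarDR day 3 in place of 9, and 1 on VarDR day 5 (all genes 7.58% and 2.82%). In that setting 1 each was higher in the acute minus VarDR response of days 2 and 3 (all genes 0.986% and 2.18%).

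With the red cell covariate, 2 were higher on VarDR day 2, 3 lower on VarDR day 3, and 2 higher and 0 lower on VarDR day 30 (all genes 4.84%, 5.9% and 3.94%). On acute days 2, 3 and 5, 13 were higher and 2 lower, 11 higher and 1 lower, and 9 higher (all genes 15.5%, 15% and 20.5%). They were largely different genes: 4 of the 8 higher and 0 of the 6 lower kept their call on day 2, and 2 of the 12 higher and 0 of the 8 lower on day 3. The acute minus VarDR response was higher in 11, 13 and 5 on days 2, 3 and 5 and lower in 1 on day 2 and 1 on day 3 (all genes 7.84%, 14.2% and 6.05%). The VarDR response from day 5 to 30 was higher in 2, and the acute response from day 2 to 5 was higher in 1 and lower in 8 (all genes 2.08% and 4.63%). Signs reversed for Oas3 on VarDR day 3 (0.075), for Irf7 (0.54), Isg15 (1.33), Oas3 (1.32) and Rsad2 (0.10) on acute day 2, and for Irf7 (0.97), Isg15 (1.68), Oas1e (1.84), Oas2 (−0.35), Oas3 (2.45), Rsad2 (0.62), Herc6 (2.09) and Parp14 (−0.21) on acute day 3. With the hepatocyte covariate, 2 were higher on VarDR day 2, 0 lower on VarDR day 30, and 4 higher in the acute minus VarDR response of day 2 (all genes 3.66%, 25.1% and 1.93%). Without the hepatocyte libraries, 2 were higher on VarDR day 2, 2 lower on VarDR day 5 and 2 lower on acute day 5 (all genes 3.85%, 7.27% and 15.9%). On VarDR day 3, 7 were then lower in place of 9 (all genes 8.22%). Members are not counted for acute day 3, where 1 irradiated library was left. Of those lower on VarDR day 5, 1 was among the 5 of the full set. The acute minus VarDR response was then higher in 0 on day 2, and the acute response from day 2 to 5 was lower in 0 (all genes 1.15% and 1.28%).

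Leaving out 1 library gave 1 to 2 higher on VarDR day 2, 7 to 10 lower on VarDR day 3, 2 to 3 higher and 2 to 5 lower on VarDR day 5, and 15 higher and 0 to 2 lower on VarDR day 30. It gave 8 to 9 higher and 6 to 7 lower, 7 to 13 higher and 7 to 8 lower, and 2 to 6 higher and 3 to 4 lower on acute days 2, 3 and 5. The acute minus VarDR response was higher in 1 to 3 and lower in 2 to 6 on day 2, 1 to 4 and 2 to 6 on day 3, and 0 to 1 each on day 5. From VarDR day 5 to 30 it was higher in 13 to 16, and from acute day 2 to 5 higher in 5 and lower in 1 to 2. Acute day 5 had 2 higher without irradiated replicate 3 and 3 without irradiated replicate 2 or sham replicate 6. VarDR day 5 had 2 lower without irradiated replicate 3 or 5. Of single-member results, 830 kept direction and call on leaving out a library, 88 lost the call, 3 gained it and 0 reversed, while under the other alternatives 772 kept both, 109 lost it, 5 gained it and 16 reversed.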
